A study of Mus musculus with 3 samples.

Results

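Mouse gallbladder cells expressed 40 collagen chain genes above a minimum of 20 unique molecular identifiers (UMIs, each standing for 1 captured transcript) over all cell barcodes. The set was every gene symbol of the form Col, number, a, number in the deposited feature list, of which there were 44. Below the minimum were Col17a1 with 14 UMIs, Col2a1 with 9, Col26a1 with 2 and Col10a1 with 1. Just above it were Col9a1 with 21, Col28a1 with 34 and Col9a2 with 43, and the most abundant chain was Col1a2 with 188169. The study asked what ingested nanoplastics do to the gallbladder, using droplet single-cell RNA sequencing (10x, 3′ chemistry). All groups were male C57BL/6 mice dosed by oral gavage, and each group was a pool of 10 gallbladders dissociated with 0.25% trypsin. The groups were nanoplastics for 3 weeks, nanoplastics for 6 weeks and vehicle for 6 weeks, each a single pool. Ages were not given in the labels. The deposited matrix holds 3 libraries that no label ties to a group, so no group was compared with another. They are called library 1, 2 and 3, are not replicates, and serve to show how far a value moved between pools.

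Collagens are secreted or membrane-bound proteins in which chains wind around each other in a helix built from repeats of glycine followed by any other amino acids, written Gly-X-Y. The fibrillar chains (types I, III, V, XI, XXIV and XXVII) form the banded fibrils that give tissue its tensile strength. Type IV chains form the sheet-like network of basement membranes, which multiplexins (types XV and XVIII) decorate and which type VII anchoring fibrils tie to the connective tissue beneath. Type VI forms beaded microfilaments near cells, type VIII forms hexagonal networks, FACIT chains sit on fibril surfaces, and the transmembrane chains (types XIII, XXIII and XXV) span the plasma membrane. In the wall of the gallbladder an epithelium rests on a fibroblast-rich lamina propria, a smooth muscle layer and an outer serosa lined by mesothelium.

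The coding sequences hold the Gly-X-Y repeat, whose longest runs set the fibrillar chains apart from the other groups. Each stretch below is read 5′ to 3′ from the GENCODE M21 coding sequence, with every glycine codon of the repeat in capitals. They are shown because these 6 genes carry the main contrasts between cell classes: type I in fibroblasts, type IV in vessel wall cells, type VII in 1 fibroblast subset, and types XIII, XXIII and XX in capillaries, lymphatics and glia. All but 1 stretch show the start of the longest run of repeats. The second Col4a1 stretch crosses an interruption of 6 residues, which appears as a lower-case gap wider than that between the other capitals.
Col1a1 (chr11:94936224-94953042, plus strand, coding bases 502 to 561): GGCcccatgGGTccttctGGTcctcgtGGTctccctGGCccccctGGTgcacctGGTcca
Col4a1 (chr8:11198423-11312826, minus strand, coding bases 127 to 186): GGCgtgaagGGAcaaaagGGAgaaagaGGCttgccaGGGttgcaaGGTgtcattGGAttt
Col4a1 (coding bases 958 to 1065): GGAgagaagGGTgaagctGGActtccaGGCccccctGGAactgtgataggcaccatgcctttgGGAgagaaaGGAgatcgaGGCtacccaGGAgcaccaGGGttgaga
Col7a1 (chr9:108953586-108984875, plus strand, coding bases 7552 to 7611): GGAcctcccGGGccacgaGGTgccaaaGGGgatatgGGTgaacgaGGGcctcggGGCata
Col13a1 (chr10:61838236-61979108, minus strand, coding bases 1402 to 1461): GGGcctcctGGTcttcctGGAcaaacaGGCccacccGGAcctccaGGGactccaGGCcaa
Col20a1 (chr2:180986535-181018363, plus strand, coding bases 3502 to 3561): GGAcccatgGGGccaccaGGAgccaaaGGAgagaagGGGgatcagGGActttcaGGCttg
Col23a1 (chr11:51289920-51583918, plus strand, coding bases 328 to 387): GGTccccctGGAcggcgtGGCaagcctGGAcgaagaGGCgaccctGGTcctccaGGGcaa
The capitals recur at an even spacing in each run. In the 10 fibrillar chains the longest unbroken run held 216 to 344 repeats, with a median of 338, and Col24a1 (216) and Col27a1 (217) were the short ones. The 6 type IV chains broke their repeat 21 to 26 times, and their longest runs held 39 to 66. Col7a1 had 471 repeats in runs of 5 or more over 2944 residues with 19 breaks. The 3 transmembrane chains had longest runs of 40 to 44 repeats, which overlap those of type IV, type VI (37 to 87) and FACIT chains (32 to 113). Col20a1, a FACIT chain, had a longest run of 32 repeats, and 11% of its 1362 residues lay in runs.

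Type IV chain genes lie in head-to-head pairs. Col4a1 and Col4a2 are transcribed away from each other on chr8, and their annotated starts, 11312826 on the minus strand and 11312805 on the plus strand, overlap by 22 bases. Their promoter windows, from 250 bases before to 50 bases after each start, therefore share 78 bases at chr8:11312777-11312854. They are shown because both genes of the pair had their highest level in the same cell class, and the shared bases are in capitals.
Col4a1 (chr8:11312777-11313076, minus strand): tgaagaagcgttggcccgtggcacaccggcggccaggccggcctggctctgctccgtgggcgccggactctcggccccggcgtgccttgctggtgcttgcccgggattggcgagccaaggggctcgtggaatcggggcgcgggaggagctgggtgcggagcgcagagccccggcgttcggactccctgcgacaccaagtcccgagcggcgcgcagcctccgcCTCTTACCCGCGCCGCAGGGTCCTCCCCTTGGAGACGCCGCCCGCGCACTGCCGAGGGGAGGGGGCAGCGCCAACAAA
Col4a2 (chr8:11312555-11312854, plus strand): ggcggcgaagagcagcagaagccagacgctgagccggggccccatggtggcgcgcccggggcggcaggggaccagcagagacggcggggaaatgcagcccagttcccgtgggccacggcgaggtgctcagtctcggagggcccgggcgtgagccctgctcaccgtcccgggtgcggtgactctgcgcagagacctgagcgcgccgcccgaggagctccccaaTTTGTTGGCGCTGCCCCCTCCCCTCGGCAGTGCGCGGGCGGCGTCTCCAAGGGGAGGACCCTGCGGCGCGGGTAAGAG
The starts of Col4a3 and Col4a4 lie 72 bases apart on chr1, and those of Col4a5 and Col4a6 lie 1309 bases apart on chrX. Promoter windows were matched for 33 of the 40 members. GGGCGG stood on either strand in 66.7% of them, against 35.9% of all 27025 promoter windows. CCAAT, also on either strand, stood in 33.3% of member windows and 37.9% of all windows. TATAAA stood in 9.09% of member windows (Col3a1, Col13a1 and Col11a2) and in 14.2% of all windows. A match is a description of these letters and does not show that a factor binds there.

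After filtering, 24993 cells remained, 4263 in library 1, 10933 in library 2 and 9797 in library 3. Library 3 stood apart in depth, with a median of 2288 UMIs per cell, against 10381 in library 1 and 9330 in library 2. Pairs of libraries shared 15 to 22 cell barcodes. Library 1 held 80 cells with markers of retinal rods, of which 76 passed no gate. Cells were placed in classes by marker genes, none of them a collagen, and 21406 cells (85.6%) passed a gate, 748 of them close to the cut. A class is a range of marker scores and not a proven cell type. Markers held out of the gates were highest in their own class except in the lymphatic one, where Pecam1, Cdh5 and Tie1 had a lower summed level, at 1461 CPM, against 2534 CPM in blood endothelium. The glial class held 71 cells, 61 of them in library 3, so each glial value rests on that library. Highest and next classes are those among the named subsets and classes. Over all libraries a highest class also had to reach 10 CPM and 20 UMIs, which was not asked of the next class. The 1725 other fibroblasts, 443 other muscle cells and 113 other blood endothelial cells, gated to the broad class but to no subset, were not ranked, and no ranked member with 20 or more UMIs in one of them stood above its highest class there. Capillary and venous endothelium below mean blood endothelial cells gated by capillary and venous markers. Levels are CPM, counts of a gene per 1e6 UMIs summed over a class, with exact Poisson 95% intervals in brackets that cover counting error only. Because 3′ libraries count 1 tag per transcript, levels of different genes were compared without dividing by length. Free RNA was read from neutrophils and T cells as a single class of 2337 cells, which should make no fibrillar collagen.

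Collagen transcripts took the largest share of the RNA of fibroblasts, and among the named classes the Ccl11/Postn subset of 1053 fibroblasts (named for the chemokine eotaxin and the matrix protein periostin) had the highest level. There the 40 members summed to 32500 CPM, with 34740, 28620 and 33770 CPM in libraries 1, 2 and 3. The Sfrp1/Smoc2/Cilp subset reached 19980 CPM (20450, 17470 and 20420 by library). The Pi16/Mfap5 subset reached 17420 CPM (22390, 14100 and 16460) and the Inmt/Gdf10 subset 14180 CPM (16750, 19290 and 13140). The order of these subsets below Ccl11/Postn changed between libraries. Fibroblasts of no subset held 23700 CPM, between the Ccl11/Postn and Sfrp1/Smoc2/Cilp subsets. Every fibroblast subset stood above every class outside the fibroblasts. Actg2/Des muscle followed with 8013 CPM (8189 CPM in muscle cells of no subset), glia with 4976, pericytes (contractile cells on the outside of small vessels) with 4807, Sparcl1/Mustn1/Adamts1 muscle with 4249 and mesothelium with 3126 CPM. By library, pericytes had 5751, 3519 and 3419 CPM and Sparcl1/Mustn1/Adamts1 muscle 3348, 6199 and 4183 CPM. Pericytes thus stood below that muscle class in libraries 2 and 3. Capillary endothelium held 2337 CPM, lymphatic endothelium 1544 CPM and venous endothelium 1437 CPM. In library 3 these endothelial classes held 2525, 1450 and 1346 CPM, against 1350 CPM in neutrophils and T cells. In library 1 they held 2398, 2333 and 1670 CPM, against 206.3 CPM. In library 2 capillary and venous endothelium held 1863 and 1095 CPM, against 105.3 CPM. Epithelium, at 234.8 CPM, lay below the 280.4 CPM of neutrophils and T cells. Within libraries 1 and 2 the order of those last 2 was the reverse, with 235.6 and 166.3 CPM in epithelium and 206.3 and 105.3 CPM in neutrophils and T cells, while library 3 had 440.4 and 1350 CPM. The level in neutrophils and T cells was highest in library 3.

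**Figure D1:**
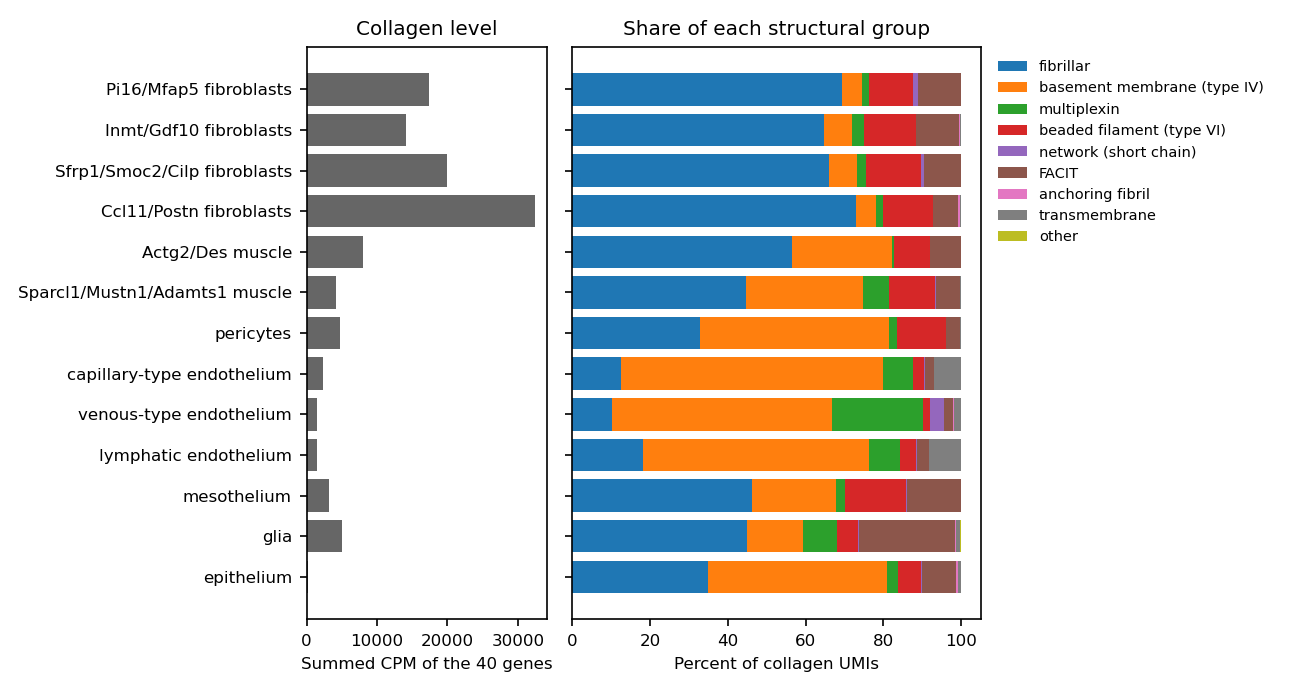
Share of the summed collagen UMIs of each cell class (percent, horizontal axis) held by each structural group of chains, with 1 bar per gated class. Fibrillar chains make up 72.9% of the bar of Ccl11/Postn fibroblasts and 12.5% of that of capillary endothelium, where type IV chains make up 67.5%. Free RNA was not subtracted.

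The mix of chain groups changed from class to class. Fibrillar chains made up 72.9% of collagen UMIs in Ccl11/Postn fibroblasts and 64.7% to 69.4% in the other named fibroblast subsets. They made up 56.6% in Actg2/Des muscle, 46.1% in mesothelium, 44.9% in glia, 44.6% in Sparcl1/Mustn1/Adamts1 muscle and 32.9% in pericytes. Free RNA was not subtracted from these shares. In library 3, with 61 of the 71 glial cells, Col1a1 stood at 385.3 CPM in glia and 308.2 CPM in neutrophils and T cells. Col1a2 stood at 674.3 and 337.5 CPM there. How much of the glial fibrillar share is free RNA was not tested. Type IV chains made up 67.5% in capillary endothelium, 58.0% in lymphatic endothelium, 56.5% in venous endothelium and 48.6% in pericytes, against 5.13% in Ccl11/Postn fibroblasts. Multiplexins reached their highest share in venous endothelium (23.3%), FACIT chains in glia (24.8%), type VI chains in mesothelium (15.8%) and transmembrane chains in lymphatic (8.24%) and capillary endothelium (6.92%).

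By level, 22 of the 40 members (55%) were highest in a named fibroblast subset, against 12.7% of the 17453 genes that met the same 20-UMI minimum. Ccl11/Postn fibroblasts were the highest class for 16 members (40%), against 2.45% of all genes, and glia for 5 (12.5%), against 1.47%. Of the 16, 12 were highest in that subset in each of the 3 libraries. Another 2 (Col11a1 and Col6a4) were highest there in libraries 1 and 2, with no class called highest in library 3. In library 3 Col11a1 stood at 41.28 CPM in glia and 32.41 CPM in Ccl11/Postn fibroblasts. The other 2 (Col4a6 and Col15a1) had another class on top in some library. Sfrp1/Smoc2/Cilp fibroblasts led for 3 members (7.5%, against 2.46% of all genes), and Pi16/Mfap5 fibroblasts (3.24% of all genes) and pericytes (4.07%) for 2 each. The highest class of 1 member each were Inmt/Gdf10 fibroblasts (4.54% of all genes), Sparcl1/Mustn1/Adamts1 muscle (5.36%), capillary endothelium (8.1%), lymphatic endothelium (7.68%) and mesothelium (7.25%). Epithelium was the highest class of 0 members, against 11.8% of all genes, as were venous endothelium (3.44% of all genes) and Actg2/Des muscle (3.63%). No class reached the presence minimum of 10 CPM and 20 UMIs for 7 members (17.5%), against 34.5% of all genes. These were Col9a1, Col9a2, Col9a3, Col11a2, Col22a1, Col24a1 and Col28a1.

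The median ratio of the highest to the next class was 1.79 over the 33 members present somewhere, against 1.17 over 11428 genes. The highest class was at least 2-fold above the next for 11 members (27.5%), against 10.5% of all genes. Those with the lower interval bound also above 2 were Col20a1, Col7a1, Col13a1, Col5a3, Col8a2 and Col6a6. The others were Col6a4, Col25a1, Col19a1, Col6a5 and Col6a2. Genes on the opposite strand overlap the 3′ ends of Col4a1, Col4a3, Col9a3 and Col18a1, and the handling of strand is not given in the sources used here, so the levels of these 4 are uncertain to that extent.

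**Figure D2:**
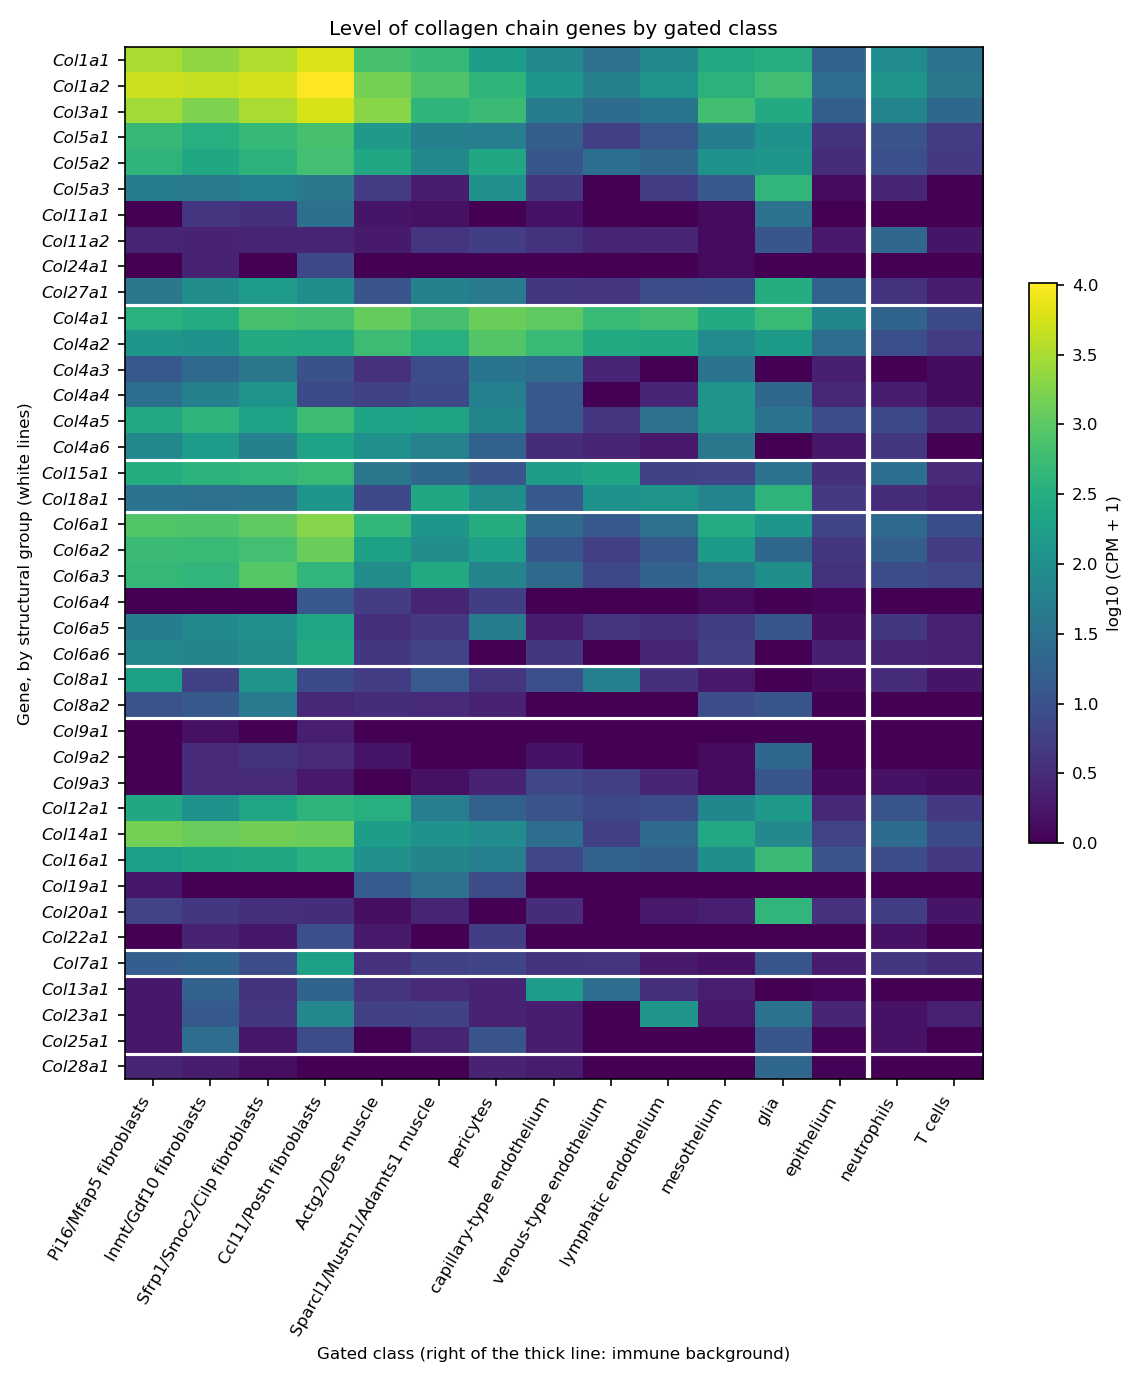
Level of each collagen chain gene (rows, grouped by chain structure) in each gated cell class (columns), as log10 of CPM plus 1. Brighter colours are higher levels. Most fibrillar and type VI chains are brightest over the fibroblast columns, with exceptions such as Col5a3 and Col27a1, which are brightest over glia. Col4a1 and Col4a2 are brightest over pericytes, Actg2/Des muscle and capillary endothelium, and Col20a1 over glia alone.

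Types I and III, the chains of the main interstitial fibrils, were highest in Ccl11/Postn fibroblasts. Col1a2 stood at 10260 CPM there [10180 to 10330], with 10800, 8813 and 11900 CPM in libraries 1, 2 and 3. In Sfrp1/Smoc2/Cilp fibroblasts it stood at 5485 CPM [5392 to 5578], with 5068, 4354 and 5886. The difference was 1.87-fold, and the library values of the 2 subsets did not overlap. Pi16/Mfap5 fibroblasts had 5079 CPM (6512, 3698 and 4851 by library) and Inmt/Gdf10 fibroblasts 4504 CPM (5621, 6474 and 4090). The order of those last 3 subsets changed between libraries. Col1a1 followed the same pattern, with 5982 CPM in Ccl11/Postn fibroblasts (6481, 5025 and 6501) and 3421 CPM in Sfrp1/Smoc2/Cilp fibroblasts (3547, 2656 and 3560). Col3a1, the type III chain, reached 5949 CPM in Ccl11/Postn fibroblasts (6432, 5637 and 4815) and 3219 CPM in Sfrp1/Smoc2/Cilp fibroblasts (3846, 3404 and 2970).

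Muscle, pericytes and mesothelium carried type I and III at lower levels. Actg2/Des muscle had 1476 CPM of Col1a2 (1971, 997.9 and 1419 by library) and 1959 CPM of Col3a1 (2424, 1801 and 1685). Sparcl1/Mustn1/Adamts1 muscle had 804.6 CPM of Col1a2 (575, 1574 and 762.8), and in library 2 it stood above Actg2/Des muscle. Pericytes had 423.5 CPM of Col1a2, and mesothelium 383 CPM (308.1, 183.1 and 417.6). Col3a1 stood at 540.9 CPM in pericytes and 614.3 CPM in mesothelium. For Col1a2, each of these classes stood above the neutrophils and T cells of its own library, which had 51.43, 21.15 and 337.5 CPM of Col1a2, by a narrow margin in library 3 for mesothelium. Endothelial classes did not stand clear of that level. Col1a2 in capillary endothelium had 24.56, 24.77 and 239.2 CPM in libraries 1, 2 and 3, and in venous endothelium 17.18, 0 and 155.9 CPM, so it is read as background there. Lymphatic endothelium, with 31.85 CPM in library 1 and 132.4 CPM in library 3, lay below the neutrophils and T cells of both. Epithelium, at 25.78 CPM (19.79, 14.64 and 68.61), lay below them in every library.

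Type V chains, which nucleate fibrils and set their diameter, split between classes. Col5a1 was highest in Ccl11/Postn fibroblasts, at 689.6 CPM (727.3, 584 and 818 by library), with Pi16/Mfap5 fibroblasts next at 491.6 CPM. Col5a2 was also highest there, at 643.3 CPM (691.1, 565.2 and 657.1), against 407 CPM in Pi16/Mfap5 fibroblasts. Col5a3 had another order: glia held 440.3 CPM [314.6 to 599.6] and pericytes 107 CPM [83.72 to 134.7], a 4.12-fold difference [2.72 to 6.14]. Pericytes had 129.7, 57.5 and 103.9 CPM of Col5a3 in libraries 1, 2 and 3, and Sfrp1/Smoc2/Cilp fibroblasts had 52.08 CPM. Col27a1, a fibrillar chain with the shorter helix noted above, was also highest in glia, at 308.2 CPM [204.8 to 445.5], against 156.2 CPM in Sfrp1/Smoc2/Cilp fibroblasts [140.9 to 172.7]. Of the fibrillar chains at the presence minimum in epithelium, it alone stood above the level of neutrophils and T cells. It had 16.49 CPM in epithelium (25.99, 8.663 and 25.5), against 1.683 CPM in neutrophils and T cells. Col11a1 reached 29.59 CPM in Ccl11/Postn fibroblasts (29.08, 29.31 and 32.41), nearly level across libraries. Its glial value of 33.03 CPM rests on 3 UMIs. Col24a1 reached 6.495 CPM in Ccl11/Postn fibroblasts on 45 UMIs, under the presence minimum.

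Ratios between chains of 1 collagen type show which chains moved together. Type I trimers are usually built from Col1a1 and Col1a2 chains, and the UMI ratio of Col1a1 to Col1a2 was 0.586 in all fibroblasts [0.581 to 0.591], with 0.614, 0.563 and 0.569 by library. Across the named classes it ran from 0.396 (pericytes) to 0.706 (lymphatic endothelium, where both genes are at background), and it was 0.779 in neutrophils and T cells. Single libraries ran from 0.302 (pericytes, library 2) to 1.14 (mesothelium, library 2). Col3a1 per Col1a1 varied far more. It was 3.22 in pericytes [2.60 to 4.01], 2.83 in Actg2/Des muscle [2.71 to 2.95] and 2.31 in mesothelium [2.13 to 2.5], against 0.95 in all fibroblasts [0.941 to 0.96] and 0.863 in Sparcl1/Mustn1/Adamts1 muscle. In each library the first 3 of these classes stood above all fibroblasts, which had 1, 1.1 and 0.791. Col5a1 per Col5a2 was 1.13 in all fibroblasts [1.10 to 1.16], 0.558 in Actg2/Des muscle, 0.433 in mesothelium and 0.209 in pericytes [0.140 to 0.303]. Col5a3 per Col5a1 was 4 in glia [1.97 to 8.97] and 2.12 in pericytes [1.39 to 3.28], against 0.0810 in all fibroblasts and 0.0281 in Actg2/Des muscle. Col3a1 thus stood above Col1a1 in pericytes, Actg2/Des muscle and mesothelium, and close to it in fibroblasts.

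**Figure D3:**
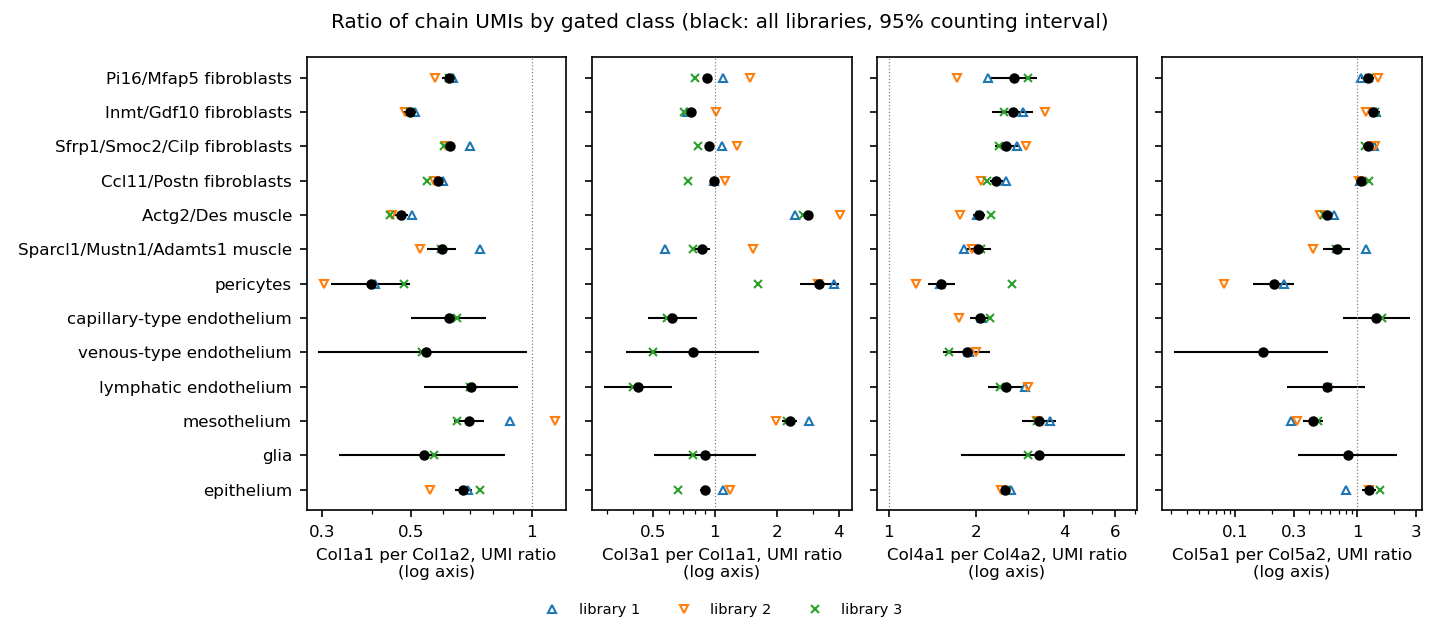
UMI ratios between chain pairs in each cell class on a log axis, with a large point and bar for the class and its 95% counting interval and small points for single libraries with at least 20 UMIs of the pair. Col3a1 per Col1a1 is above 2 in pericytes, Actg2/Des muscle and mesothelium and 0.95 in all fibroblasts, whereas Col1a1 per Col1a2 lies between 0.396 and 0.706 in the named classes and between 0.302 and 1.14 in single libraries.

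The type IV pair of ordinary basement membranes, Col4a1 and Col4a2, was highest in cells of the vessel wall and muscle. Pericytes had 1303 CPM of Col4a1 [1218 to 1392], with 1633, 850.9 and 821.8 CPM by library. Actg2/Des muscle had 1152 CPM [1120 to 1184] (1392, 766.8 and 1240) and capillary endothelium 1026 CPM [980 to 1075] (1326, 886.7 and 906.4). Pericytes and Actg2/Des muscle differed by 1.13-fold, and the order changed: in library 2 capillary endothelium stood highest of the 3 classes, and in library 3 muscle did. Fibroblast subsets had 707 CPM (Sfrp1/Smoc2/Cilp), 613 CPM (Ccl11/Postn), 358 CPM (Pi16/Mfap5) and 292.7 CPM (Inmt/Gdf10). Lymphatic endothelium had 616.6 CPM (1282 in library 1, 530.6 in library 3), venous endothelium 522.5 CPM (652.8, 533.7 and 317.1), glia 506.4 CPM and mesothelium 280.2 CPM. Col4a2 stood at 860.4 CPM in pericytes (1086, 684.2 and 311.7), 564.9 CPM in Actg2/Des muscle (693.5, 435 and 554.7) and 497.8 CPM in capillary endothelium (634.9, 510.2 and 406.9). Pericytes led the 3 classes for Col4a2 in libraries 1 and 2, and came last in library 3.

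Epithelium, which rests on a basement membrane, had 69.37 CPM of Col4a1 [68.15 to 70.62], with 76.64, 58.85 and 89.93 CPM by library. Neutrophils and T cells had 11.36 CPM (7.273, 4.749 and 56.57), so epithelium stood above them in each library, least so in library 3. Col4a2 had 27.64 CPM in epithelium and 5.68 CPM in neutrophils and T cells. With each cell thinned to 2000 UMIs and shallower cells left out, Col4a1 was seen in 11.6% of epithelial cells [11.0 to 12.3]. It was seen in 0.542% of neutrophils and T cells [0.176 to 1.26]. Without thinning the shares were 51.7% and 2.23%, at median depths of 13354 and 1620 UMIs. The thinned share was 81.8% in Actg2/Des muscle, 78.6% in capillary endothelium [73.3 to 83.2] and 74.6% in pericytes [66.1 to 81.9]. Thinned shares cover the deeper cells of a class only. They leave out 74 of the 200 pericytes, and the median capillary cell, at 1629 UMIs, lay under the depth needed. Both genes of the pair were seen in the same thinned cell in 54.0% of pericytes, 50.5% of Actg2/Des muscle and 46.4% of capillary endothelium, against 0.765% of epithelial cells and 0% of neutrophils and T cells. These intervals are exact binomial ones. Col4a1 per Col4a2 was 3.29 in glia [1.77 to 6.47], 3.27 in mesothelium [2.86 to 3.74], 2.5 in all fibroblasts, 2.04 in Actg2/Des muscle and 1.51 in pericytes [1.36 to 1.69].

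The other type IV chains, which build the tissue-specific networks, had other highest classes. Col4a3 and Col4a4 were low throughout. Col4a4 stood at 124.5 CPM in mesothelium [112.8 to 137] (102.7, 84.21 and 132.7 by library) and 116.5 CPM in Sfrp1/Smoc2/Cilp fibroblasts [103.3 to 130.8] (62.57, 60.06 and 147.4). Those 2 classes could not be ordered beyond counting error, and Ccl11/Postn fibroblasts had 7.072 CPM. Col4a3 stood at 37.32 CPM in Sfrp1/Smoc2/Cilp fibroblasts [30.04 to 45.82], 35.67 CPM in pericytes [22.85 to 53.07], 34.25 CPM in mesothelium [28.27 to 41.11] and 26.32 CPM in capillary endothelium [19.34 to 35]. The intervals of all 4 overlapped, and in libraries 1 and 2 capillary endothelium (30.23 and 34.68 CPM) stood above Sfrp1/Smoc2/Cilp fibroblasts (19.55 and 30.03 CPM). Col4a3 per Col4a4 was 2.24 in capillary endothelium [1.31 to 3.94], 0.320 in Sfrp1/Smoc2/Cilp fibroblasts and 0.275 in mesothelium [0.222 to 0.339].

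Col4a5 and Col4a6, the pair on chrX, had their highest levels in fibroblasts and muscle. Ccl11/Postn fibroblasts had 566.6 CPM of Col4a5 (595.1, 489 and 658.2), Inmt/Gdf10 fibroblasts 399.3 CPM and Pi16/Mfap5 fibroblasts 264.8 CPM. Sparcl1/Mustn1/Adamts1 muscle had 218.8 CPM, Actg2/Des muscle 213.7 CPM, mesothelium 116.1 CPM and pericytes 68.36 CPM. Capillary endothelium, at 12.32 CPM, and venous endothelium, at 3.177 CPM, held little. Col4a6 had 209.3 CPM in Ccl11/Postn fibroblasts (207.4, 216.9 and 196.7) and 158.6 CPM in Inmt/Gdf10 fibroblasts (120.8, 353.6 and 132.3), so Inmt/Gdf10 fibroblasts were on top in library 2. It stood at 103 CPM in Actg2/Des muscle, at 39.31 CPM in mesothelium and at 2.24, 1.588 and 0.8648 CPM in capillary, venous and lymphatic endothelium. The endothelial classes thus carried Col4a1 and Col4a2 at 244.7 CPM or more and the pair on chrX at or below 31.13 CPM, against neutrophil and T cell levels of 3.997 CPM for Col4a5 and 1.262 CPM for Col4a6. The 31.13 CPM was Col4a5 in lymphatic endothelium. In library 3 Col4a5 stood at 31.33 CPM in lymphatic and 22.28 CPM in capillary endothelium, against 21.46 CPM in neutrophils and T cells. In library 1 the same classes had 23.89, 3.779 and 1.559 CPM. In library 2 capillary endothelium had 2.477 CPM, and neutrophils and T cells 2.159 CPM. The capillary value thus lay close to background in libraries 2 and 3. Col4a5 per Col4a6 was 2.80 in all fibroblasts [2.68 to 2.92] and 2.07 in Actg2/Des muscle.

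**Figure D4:**
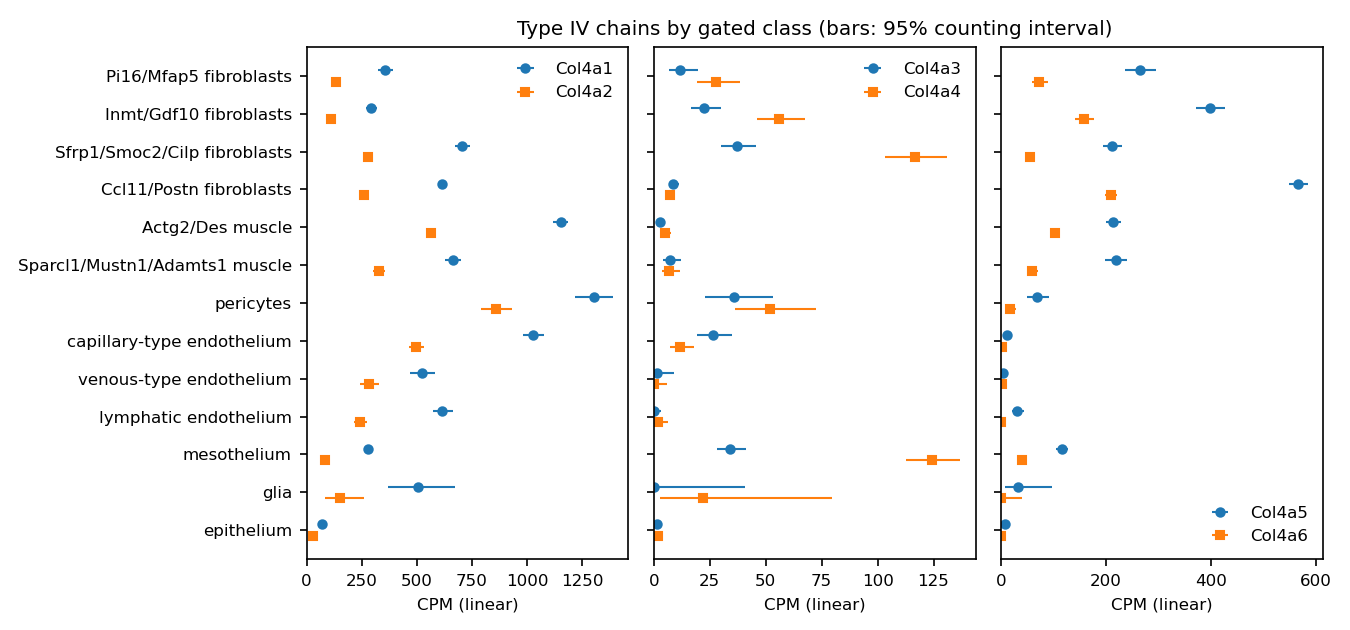
Level of the 6 type IV chain genes (CPM) in each cell class, with points for the class over all libraries and bars for 95% counting intervals. Col4a1 and Col4a2 are highest in pericytes, Actg2/Des muscle and capillary endothelium, Col4a5 and Col4a6 in Ccl11/Postn fibroblasts, and Col4a4 in mesothelium and Sfrp1/Smoc2/Cilp fibroblasts.

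The multiplexins Col15a1 and Col18a1, basement membrane proteoglycans, parted in their classes. Col15a1 was a fibroblast gene, at 498.1 CPM in Ccl11/Postn (540.2, 403.2 and 580 by library), 442.1 CPM in Sfrp1/Smoc2/Cilp (371.5, 409.5 and 472.8), 390.3 CPM in Inmt/Gdf10 and 300.3 CPM in Pi16/Mfap5 fibroblasts. Blood vessels carried it too, with 222.4 CPM in venous endothelium (319.5, 136.8 and 140.3) and 168.6 CPM in capillary endothelium (149.3, 143.7 and 192.3). Lymphatic endothelium had 5.189 CPM, below the 11.57 CPM of neutrophils and T cells. Col18a1, whose fragment is endostatin, stood at 407.3 CPM in glia [286.8 to 561.4] and 252.5 CPM in Sparcl1/Mustn1/Adamts1 muscle [230.5 to 275.9] (310.4, 138.1 and 255.7). Actg2/Des muscle had 6.745 CPM of Col18a1, so the 2 muscle classes lay far apart. Lymphatic endothelium, at 117.6 CPM [98.68 to 139.1], and venous endothelium, at 112.8 CPM [88.07 to 142.2], were alike within counting error, and capillary endothelium had 12.88 CPM. In venous and capillary cells Col15a1 thus stood above Col18a1, while in lymphatic cells Col18a1 stood above Col15a1.

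Type VI chains, which form beaded filaments, were led by Ccl11/Postn fibroblasts with 1 exception. Col6a1 had 1902 CPM there (2035, 1857 and 1480 by library) and 1064 CPM in Sfrp1/Smoc2/Cilp fibroblasts (1332, 1018 and 987.3). Col6a2 had 1296 CPM in Ccl11/Postn fibroblasts (1437, 1088 and 1279) and 645 CPM in Sfrp1/Smoc2/Cilp fibroblasts (737.1, 562.3 and 634.3). Col6a3, the long chain that joins them, was highest in Sfrp1/Smoc2/Cilp fibroblasts instead, at 900.5 CPM [863.2 to 939] (600.3, 690.6 and 1048). Pi16/Mfap5 fibroblasts had 473.4 CPM of Col6a3 (424.9, 361 and 498.9) and Ccl11/Postn fibroblasts 436.8 CPM (434, 309.8 and 786.7). Sfrp1/Smoc2/Cilp fibroblasts were on top of both in each library. Col6a1 per Col6a3 was 8.08 in mesothelium [6.69 to 9.84], 4.62 in Actg2/Des muscle, 4.35 in Ccl11/Postn fibroblasts [4.19 to 4.53], 1.18 in Sfrp1/Smoc2/Cilp fibroblasts and 0.488 in Sparcl1/Mustn1/Adamts1 muscle [0.418 to 0.567]. By library the Ccl11/Postn value was 4.69, 5.99 and 1.88, and the Sfrp1/Smoc2/Cilp value 2.22, 1.47 and 0.942, so library 3 was lowest in both. The Sparcl1/Mustn1/Adamts1 muscle value was 0.611, 2.06 and 0.428, on either side of 1.

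The related chains Col6a5 and Col6a6 were more restricted. Col6a5 stood at 224.9 CPM in Ccl11/Postn fibroblasts (263.1, 201.4 and 131.9) and 104.6 CPM in Sfrp1/Smoc2/Cilp fibroblasts, 2.15-fold lower there [1.88 to 2.47]. Col6a6 stood at 276.8 CPM in Ccl11/Postn fibroblasts (330.6, 232.8 and 175.4) and 93.5 CPM in Sfrp1/Smoc2/Cilp fibroblasts, a 2.96-fold difference [2.58 to 3.41], with 146.9 CPM in fibroblasts of no subset. Both were lowest in library 3 within the Ccl11/Postn subset. Col6a4 reached 11.55 CPM in Ccl11/Postn fibroblasts [9.16 to 14.4] (12.07, 10.05 and 13.41) and had 0 UMIs in the other 3 named fibroblast subsets. The next class, pericytes, had 4.458 CPM on 3 UMIs, and the ratio of 2.59 had an interval of 0.855 to 12.8.

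The type VIII chains, which build the hexagonal lattices best known from the cornea, were low outside a few classes. Col8a1 stood at 192.1 CPM in Pi16/Mfap5 fibroblasts [168.7 to 217.8] (159.3, 19.52 and 220.1 by library) and 118.9 CPM in Sfrp1/Smoc2/Cilp fibroblasts [105.6 to 133.4] (66.48, 68.25 and 148). In library 2 the order of the 2 subsets was turned round. Venous endothelium had 52.41 CPM [36.08 to 73.61], while Ccl11/Postn fibroblasts had 6.928 CPM and Inmt/Gdf10 fibroblasts 5.004 CPM. Col8a2 stood at 45.93 CPM in Sfrp1/Smoc2/Cilp fibroblasts (37.15, 57.33 and 46.13), 12.51 CPM in Inmt/Gdf10 and 9.485 CPM in Pi16/Mfap5 fibroblasts. Col8a1 per Col8a2 was 20.2 in Pi16/Mfap5 fibroblasts [11.4 to 39.7], 2.59 in Sfrp1/Smoc2/Cilp fibroblasts and 0.400 in Inmt/Gdf10 fibroblasts. The Pi16/Mfap5 value rests on library 3, at 33.7 there and 6.5 in library 1, with too few UMIs in library 2. Venous endothelium had 33 UMIs of Col8a1 and 0 of Col8a2. Neither type VIII chain was led by Ccl11/Postn fibroblasts.

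Among FACIT chains, Col14a1 was a general fibroblast gene. It had 1488 CPM in Pi16/Mfap5 (1409, 1298 and 1529 by library), 1405 CPM in Sfrp1/Smoc2/Cilp (1715, 1469 and 1289), 1295 CPM in Ccl11/Postn and 1212 CPM in Inmt/Gdf10 fibroblasts. The first 2 changed order between libraries. Mesothelium had 264.4 CPM. Col12a1, which binds type I fibrils, stood at 409.5 CPM in Ccl11/Postn fibroblasts (441.7, 321.5 and 512.9) and 339.1 CPM in Actg2/Des muscle (320.2, 287.9 and 393.8). Sparcl1/Mustn1/Adamts1 muscle had 51.32 CPM (20.35, 172.6 and 44.09), below Actg2/Des muscle in each library. Col16a1 stood at 550.4 CPM in glia [408.5 to 725.7] and 355.2 CPM in Ccl11/Postn fibroblasts [341.3 to 369.5] (347.6, 329.9 and 453.7). Col19a1 was low, at 30.59 CPM in Sparcl1/Mustn1/Adamts1 muscle [23.28 to 39.45] (30.53, 0 and 33.38) and 13.49 CPM in Actg2/Des muscle [10.24 to 17.44].

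Col20a1 was the member most restricted to 1 class. Glia had 429.3 CPM [305.3 to 586.9] on 39 UMIs, and Pi16/Mfap5 fibroblasts, the next class, had 5.533 CPM, a 77.6-fold difference [34.3 to 206]. A UMI was seen in 35.2% of the 71 glial cells at a median depth of 1132 UMIs. Glia carried 9 members at or above the presence minimum (22.5%), against 4.37% of all genes, on 90837 UMIs in all. They were the highest class for Col20a1, Col5a3, Col16a1, Col18a1 and Col27a1. Of the remaining FACIT chains, Col22a1 reached 8.66 CPM in Ccl11/Postn fibroblasts on 60 UMIs. Those of type IX, known from cartilage, were near 0: Col9a1 had 1.155 CPM and Col9a2 2.165 CPM in Ccl11/Postn fibroblasts, and Col9a3 had 6.16 CPM in capillary endothelium on 11 UMIs.

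Col7a1, the anchoring fibril chain, marked the Ccl11/Postn subset. It stood at 191.7 CPM there [181.5 to 202.3], with 199.5, 188 and 169.9 CPM by library. Inmt/Gdf10 fibroblasts, next, had 18.52 CPM (25.43, 28.45 and 16.3), a 10.4-fold difference [7.47 to 14.8]. The library values of the 2 subsets lay far apart. Fibroblasts of no subset had 46.9 CPM (42.7, 95.48 and 32.67), also below each Ccl11/Postn value. A Col7a1 UMI was seen in 23.0% of thinned Ccl11/Postn cells [20.3 to 25.8], in 2.62% of thinned Inmt/Gdf10 cells and in 0.434% of thinned neutrophils and T cells. Unthinned, the share was 44.3% in Ccl11/Postn fibroblasts (median depth 4953 UMIs) and 0.556% in neutrophils and T cells. In skin, keratinocytes are a known source of type VII. Gallbladder epithelium had 1.084 CPM on 190 UMIs, against 2.735 CPM on 13 UMIs in neutrophils and T cells. Epithelial cells were deeper, so the order of these CPM does not show whether they made Col7a1.

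Transmembrane chains were split among endothelia and fibroblasts. Col13a1 stood at 159.6 CPM in capillary endothelium [141.6 to 179.2], with 162.5, 163.5 and 156 CPM by library. Venous endothelium had 27 CPM (6.871, 34.21 and 51.98), a 5.91-fold difference [3.63 to 10.3], and lymphatic endothelium 2.594 CPM. Blood endothelial cells of neither subset had 108.4 CPM [70.78 to 158.8]. Ccl11/Postn fibroblasts had 18.47 CPM, and neutrophils and T cells 0. The 3 capillary values lay close together, and each stood above every venous value. Of capillary cells with 2000 UMIs or more, thinned to that depth, 26.1% had a Col13a1 UMI [21.0 to 31.6]. The share was 4.31% of venous cells and 0 of 922 neutrophils and T cells, which allows up to 0.399% of cells with a UMI. Col23a1 stood at 124.5 CPM in lymphatic endothelium [105 to 146.6] (294.7 in library 1, 102.1 in library 3) and 69.71 CPM in Ccl11/Postn fibroblasts [63.63 to 76.22] (69.69, 82.05 and 36.88). Capillary endothelium had 1.12 CPM, so the chain that marked capillaries and the one that marked lymphatics hardly met in 1 class of endothelium. Col25a1 reached 26.02 CPM in Inmt/Gdf10 fibroblasts [19.43 to 34.12] (50.87, 20.32 and 24.45), and the glial value of 11.01 CPM that followed rests on 1 UMI. Col28a1 had 34 UMIs in all cells and no class at the minimum.

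**Figure D5:**
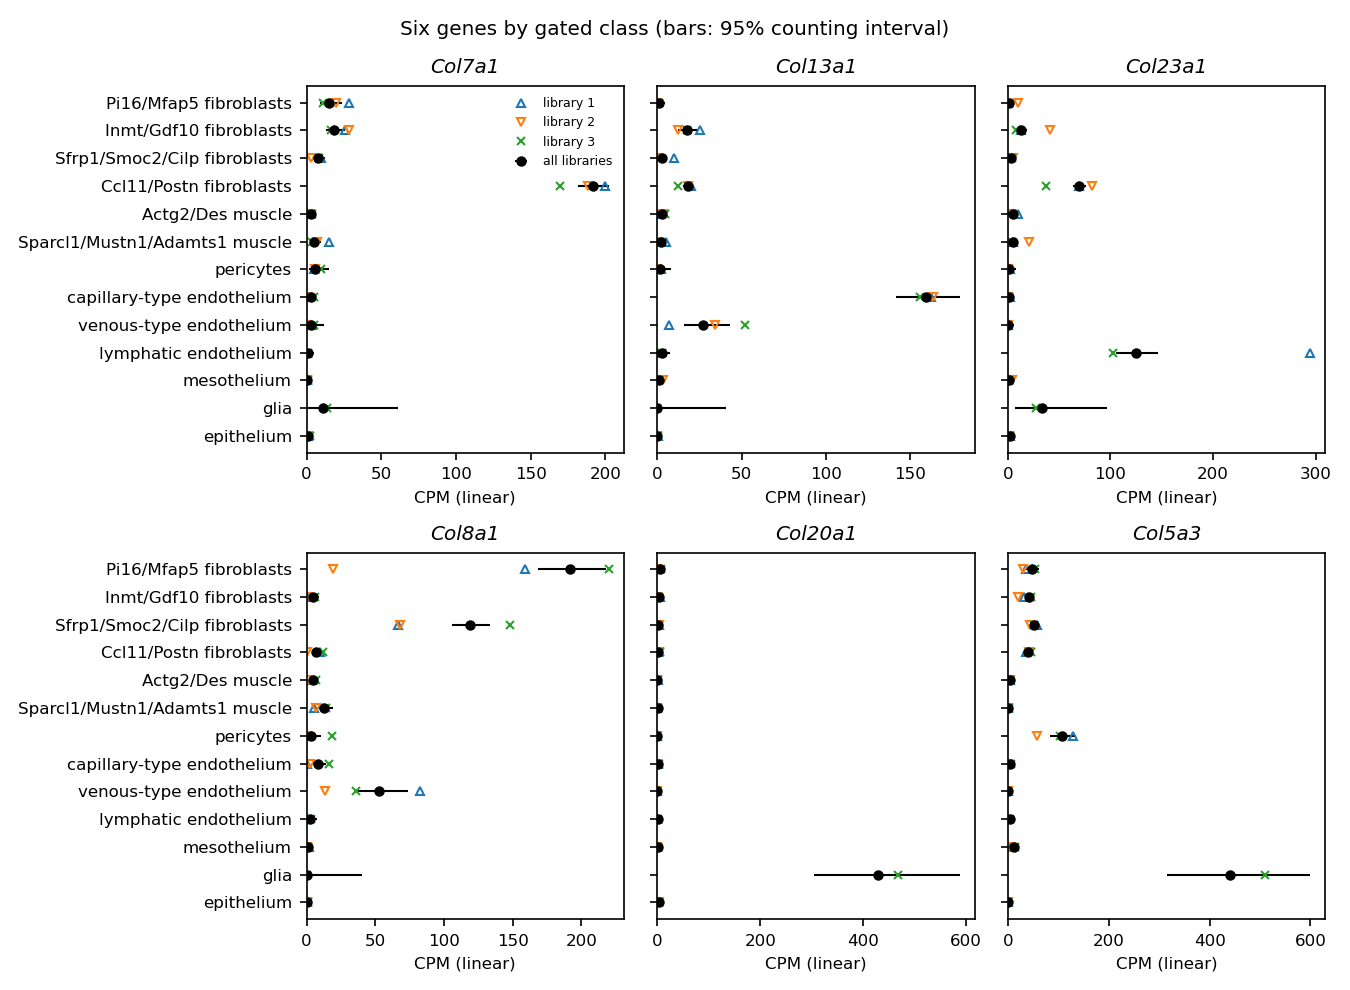
Level (CPM) by cell class of chain genes with 1 leading class, with large points for the class, bars for 95% counting intervals and small points for single libraries. Col7a1 is highest in Ccl11/Postn fibroblasts at 192 CPM, Col13a1 in capillary endothelium at 160, Col23a1 in lymphatic endothelium at 125 and Col20a1 in glia at 429.

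Epithelium, the largest class with 9769 cells, carried 7 members at the presence minimum (17.5%), against 44.6% of all genes. Of the 7, Col1a1, Col1a2 and Col3a1 lay below the CPM level of neutrophils and T cells. Above that level were Col4a1, Col4a2, Col27a1 and Col16a1, the last at 10.42 CPM in epithelium and 5.259 CPM in neutrophils and T cells. In library 3 Col16a1 was 15.59 CPM in epithelium and 17.56 CPM in neutrophils and T cells, so the order did not hold there. Col1a1 and Col1a2 were seen together in 0.818% of thinned epithelial cells [0.646 to 1.02] and 0.976% of thinned neutrophils and T cells [0.447 to 1.84], against 96.4% of thinned fibroblasts. Epithelial cells were deeper, with a median of 13354 UMIs, against 1066.5 in neutrophils and 2404 in T cells. The same amount of free RNA per cell gives a lower CPM, and a lower thinned share, in deeper cells. These comparisons therefore do not show whether Col1a1, Col1a2 and Col3a1 are background in epithelium.

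Across the other classes the number of members present was 28 in Inmt/Gdf10 fibroblasts (70%, against 50.5% of all genes), 26 in Ccl11/Postn (65%, against 45.5%), 25 in Sfrp1/Smoc2/Cilp (62.5%, against 48.4%) and 23 in Pi16/Mfap5 fibroblasts (57.5%, against 41.9%). Pericytes had 19 members (47.5%, against 26.7%), Sparcl1/Mustn1/Adamts1 muscle 20 (50%, against 46.4%), Actg2/Des muscle 18 (45%, against 44.7%) and mesothelium 19 (47.5%, against 48.9%). Muscle and mesothelium thus had a share near that of genes in general. Endothelium had fewer: 15 in capillary (37.5%, against 46.1%), 12 in lymphatic (30%, against 40.3%) and 6 in venous cells (15%, against 27.4%). With free RNA subtracted the first 2 counts were 5 each, and with clusters in place of gates the venous count was 13. The classes differ in cells and depth, which moves these numbers.

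Genes that modify, export, process, join or bind collagens were taken as 7 lists, described by their summed level and the number present. The 18 chain-modifying enzymes and chaperones summed to 2961 CPM in Sfrp1/Smoc2/Cilp and 2788 CPM in Ccl11/Postn fibroblasts, with 15 present in the first. The first sum was 2599, 2405 and 3210 CPM by library. Library 3 held 600 of the 786 Sfrp1/Smoc2/Cilp cells and 249 of the 1053 Ccl11/Postn cells. Whether the order of these subsets holds within each library was not tested. In Sfrp1/Smoc2/Cilp fibroblasts Serpinh1, the collagen chaperone HSP47, had 1094 CPM (752.8, 657.9 and 1308 by library). Plod2, a lysyl hydroxylase, had 487.2 CPM there. Epithelium had 836.3 CPM for the list with 6 present, and P4hb, a protein disulfide isomerase used for many proteins, stood at 269.3 CPM in it, against 286.6 CPM in Sfrp1/Smoc2/Cilp fibroblasts. The 5 export genes summed to 484.5 CPM in Pi16/Mfap5 and 476.1 CPM in Sfrp1/Smoc2/Cilp fibroblasts, with all 5 present in the first. The Pi16/Mfap5 sum was 314.6, 292.7 and 551.2 CPM by library, against 381 CPM in epithelium over all libraries, so the level over all libraries rests on library 3. Mia3 (TANGO1, which loads procollagen into transport carriers) had 195.2 CPM in Pi16/Mfap5 fibroblasts, the coat protein gene Sec24d 137.5 CPM and Mia2 79.04 CPM, and Mia2 was highest in epithelium at 200.4 CPM. The 8 procollagen-processing genes summed to 955.6 CPM in Pi16/Mfap5 and 947.7 CPM in Sfrp1/Smoc2/Cilp fibroblasts, against 13.67 CPM in epithelium. Among them Adamts2, which removes the amino-terminal propeptide, and Pcolce2, an enhancer of carboxyl-terminal cleavage, stood at 240.3 and 316.2 CPM in Pi16/Mfap5 fibroblasts, and Pcolce, a related enhancer, at 233.2 CPM.

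The 7 crosslinking genes summed to 1373 CPM in Sfrp1/Smoc2/Cilp fibroblasts and 1243 CPM in Sparcl1/Mustn1/Adamts1 muscle, with 6 present in the first. Lox, the lysyl oxidase, was highest in that muscle class at 654.2 CPM, against 428.5 CPM in Sfrp1/Smoc2/Cilp fibroblasts, where its relative Loxl1 had 336.3 CPM and the transglutaminase Tgm2 398.6 CPM. The 10 collagen receptors summed to 2289 CPM in Actg2/Des muscle and 2170 CPM in pericytes. The integrin subunit Itgb1 alone had 1792 CPM in Actg2/Des muscle, the integrin subunit Itga1 was highest in pericytes at 793.5 CPM, and the receptor kinase Ddr2 in Pi16/Mfap5 fibroblasts at 468.7 CPM. The 16 basement membrane partners summed to 6540 CPM in Ccl11/Postn and 5240 CPM in Pi16/Mfap5 fibroblasts, and the 9 fibril partners to 6779 CPM in Pi16/Mfap5 and 6601 CPM in Sfrp1/Smoc2/Cilp fibroblasts, with all 9 present. Over all libraries Ccl11/Postn fibroblasts, with the most collagen chain transcripts, led 1 of the 7 lists. Whether this count holds within each library was not tested. In that list Sparc, a matrix protein that binds collagen, had 4095 CPM in Ccl11/Postn fibroblasts. The basement membrane genes Nid1 and Lama2 had 752.8 and 478.6 CPM. In Pi16/Mfap5 fibroblasts the fibril partners fibronectin (Fn1), biglycan (Bgn) and fibrillin (Fbn1) had 2314, 1376 and 857.6 CPM, and Bgn was highest in Ccl11/Postn fibroblasts at 3564 CPM. No list was led by the endothelial classes or by mesothelium.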

How the data were processed

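Per the labels, single-cell 3′ libraries (10x) were made from pooled gallbladders, and per the submitters' processing notes reads were processed with Cell Ranger 6.1.1 on GRCm38 (mm10). The annotation version is not given in the sources used here. The authors deposited 1 matrix of raw UMI counts, 31053 genes by 27700 barcodes, with 3 library suffixes that no label ties to a group. Cells were kept at 300 or more genes, at most 20% mitochondrial UMIs and a Scrublet score of at most 0.25 per library, which removed 1024 cells as doublets (3.94%). Cells were placed in classes by marker scores per 10000 UMIs (minimum 0.25, margin 0.5 over the next class, 3 markers detected, or 2 under 1500 UMIs), with no collagen among the markers. UMI counts were summed per class and given as CPM with exact Poisson intervals, ratios with exact binomial ones, at 95%. With 1 unassigned library per group there was no test between groups, and no p-value is given. A library value needed 20 cells. A gene was present in a class at 10 CPM and 20 UMIs. A class needed 50 cells, so the 12 tuft cells were not compared. Shares of cells were taken after thinning each cell to 2000 UMIs, with shallower cells left out. Every member was named, and of each pathway list the 3 genes with the highest CPM in its highest class. The members, lists and gates were chosen with earlier results of these data known. Alternative classes came from Leiden clusters (resolution 2.0) made without collagens. The gates and intervals were also run on simulated cells drawn from the profiles of the gated cells. Such a run cannot show that a gate finds the right cell type or that the intervals cover more than counting error. Promoter windows come from RefSeq GRCm38.p6, and coding sequences, their lengths and 3′ overlaps from GENCODE M21. Protein sequences were not used here. Clustering and doublet scores used scanpy 1.11.5 and leidenalg 0.10.2, intervals scipy 1.17.1, and figures matplotlib 3.10.9, all under Python 3.11.15.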

Additional observations from a re-analysis of the deposited data

Results flagged for a closer look

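Library 1 held 80 cells with 4 or more of 5 rod photoreceptor markers, a cell type foreign to the gallbladder, and libraries 2 and 3 held 0. Those cells had 20 collagen UMIs in all, and 76 of them entered no class.

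Col11a2, a fibrillar chain under the presence minimum in each compared class, stood at 20.4 CPM in neutrophils (14.3 to 28.2, on 36 UMIs), with 19.2, 17.6 and 29.8 CPM in libraries 1, 2 and 3. T cells had 0.67 CPM, macrophages 2.92 CPM, and the highest compared class other than glia 4.46 CPM. A UMI was seen in 2.68% of neutrophils. The cause was not tested.

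The 3587 cells that passed no gate had a summed collagen level of 3564 CPM, 14.2% of that in all fibroblasts. Their median depth was 1889 UMIs, against 6064 in gated cells.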

How the results depend on the processing

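Counts of members highest in a fibroblast subset (22) stayed within 21 to 23 when each library was left out. Those at least 2-fold above the next class (11) became 9 to 10, and 5 at a 3-fold threshold. Between 22 and 32 of 33 members kept their highest class without a library, 29 with clusters made without collagens, and 31 with libraries weighted equally.

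Counts of members present moved most. With free RNA subtracted there were 5 in capillary and 5 in lymphatic endothelium and 3 in epithelium. At 20 CPM and 50 UMIs there were 11 in pericytes, 7 in capillary endothelium, 6 in lymphatic endothelium, 2 in glia and 3 in epithelium. Clusters gave 13 in venous endothelium. A minimum of 5 UMIs, chosen after seeing the data, gave 12 in venous endothelium and 16 in glia. Leaving out 1 library gave 10 to 19 in pericytes (10 without library 1), 18 to 28 in Inmt/Gdf10 fibroblasts (18 without library 3) and 6 to 13 in capillary endothelium (6 without library 3), where fewer UMIs were left.

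Without library 3 glia and lymphatic endothelium had fewer than the 50 cells a class needed, so neither was ranked. The glial leads of Col20a1, Col27a1, Col16a1, Col18a1 and Col5a3 therefore rest on library 3. Col23a1 was higher in lymphatic endothelium (294.7 CPM, 20 cells) than in Ccl11/Postn fibroblasts (69.69 CPM) in library 1 too. Over 10 settings Col4a3 kept its highest class in 6, Col14a1 in 7, and Col4a1, Col4a4 and Col18a1 in 8 each. Col4a1 moved to Actg2/Des muscle without library 1 and with libraries weighted equally, Col15a1 to Sfrp1/Smoc2/Cilp fibroblasts without library 1, and Col18a1 to Sparcl1/Mustn1/Adamts1 muscle with clusters. No paired analysis was possible because the libraries carry no group and no test was made. Depth limits every chain under about 20 UMIs in a class.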

Other observations

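Among cells of other tissues, 18 cells carried red cell markers, 7 hepatocyte markers and 1 microglial markers. The red cell group had 229 collagen UMIs and the hepatocyte group 2.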
